A study of Arabidopsis thaliana with 8 samples.

Results

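The genes described here are 102 Arabidopsis thaliana loci that carry no name beyond their locus number in the array's annotation and whose transcripts were well measured in wildtype seedlings and lower in seedlings labelled E2Fa-Dpa. They were chosen from the measured values. A probe set was taken if its annotation held a single bare locus number, if its signal was 60 or more on all 4 wildtype arrays, and if its highest E2Fa-Dpa signal was at most 0.8 times its lowest wildtype signal. Of 22746 probe sets that are not controls, 11933 carry such a locus number, 3192 of these met the wildtype minimum, and 102 of the 3192 also met the ratio. The rule leaves out 4 peroxidase loci by name, and none of these met the other criteria. Because the choice used every array of the comparison between the groups, the differences between E2Fa-Dpa and wildtype are given for these genes as a description, without a test.

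The series measured transcript levels on the ATH1 array, a single-channel chip of short Arabidopsis oligonucleotides, with 1 array for each of 8 whole-seedling samples of the Col-0 accession. The groups are E2Fa-Dpa, with 4 arrays, and wildtype, with 4 arrays. Both groups grew on agar at 22 °C with 16 h of light and 8 h of darkness, and were taken 6 days from germination, or 8 days from sowing. How the E2Fa-Dpa plants were made, with which promoter and in which line, is not in the labels. Nor is it stated whether replicates are separate cultures, and the p-values below then measure the spread between these samples, which may be technical.

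E2Fa and DPa are transcription factors that pair with each other and bind promoters of genes used when cells copy their DNA. They are known for keeping cells dividing and delaying differentiation. The loci below include secreted peroxidases, chitinases, lectins and lipases, which work in defence and at the cell surface, as well as enzymes of the cell wall and of metabolism. The annotation and the RefSeq gene table hold only the locus number as the symbol of all 102 loci. The families named here are therefore background knowledge at the level of the protein family, available for 69 of the 102 loci, while the other 33 are given by locus alone.

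The arrays differed in a way the labels do not mention. The bacterial poly-A control RNA dap, a spiked-in quality control, gave mean signals of 67.5 to 99.4 on E2Fa-Dpa replicates 1 and 4 and wildtype replicates 3 and 4. On the other 4 arrays it gave 0.512 to 2.57. These array sets each hold 2 arrays of either group, and within a set the 2 arrays of a group are close, with correlations of 0.9743 to 0.9941 over all probe sets. Should each pair derive from a single RNA preparation, only 2 independent samples would remain in a group. Median signals per array were 37.9 to 44.4, and the number of arrays limits the precision.

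Signals are linear intensities scaled by the authors. Differences are E2Fa-Dpa minus wildtype on a log2(signal + 16) scale, on which the change of dim probe sets is understated. Signals of single arrays are listed in the order of replicates 1 to 4. By the rule, all E2Fa-Dpa values of a chosen gene lie below all its wildtype values. This order was seen in 6.77% of all probe sets, and the opposite order in 9.53%.

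Across the 102 genes the mean E2Fa-Dpa signal was between 0.204 and 0.71 times the mean wildtype signal, with a median of 0.462. In 64 genes the E2Fa-Dpa mean was at most 0.5 times the wildtype mean, and in 9 at most 0.25 times. On the log2 scale the differences ran between -1.90 and -0.43 with a median of -0.97, while the median over the 3192 well-measured locus-only probe sets was 0.05. The E2Fa-Dpa means spanned 19.4 to 1037 with a median of 86.0, and the wildtype means 74.4 to 1816 with a median of 163.7. In 25 genes every E2Fa-Dpa signal was under 60. The median coefficient of variation within a group was 15.2% in E2Fa-Dpa and 18.7% in wildtype. In a limma fit over all probe sets 2.94% were called lower at an adjusted p of 0.05, among them all of the chosen genes but AT1G06000. That result follows from the choice of the genes. In whole seedlings, fewer cells of a type and less RNA per cell cannot be told apart.

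**Figure D1:**
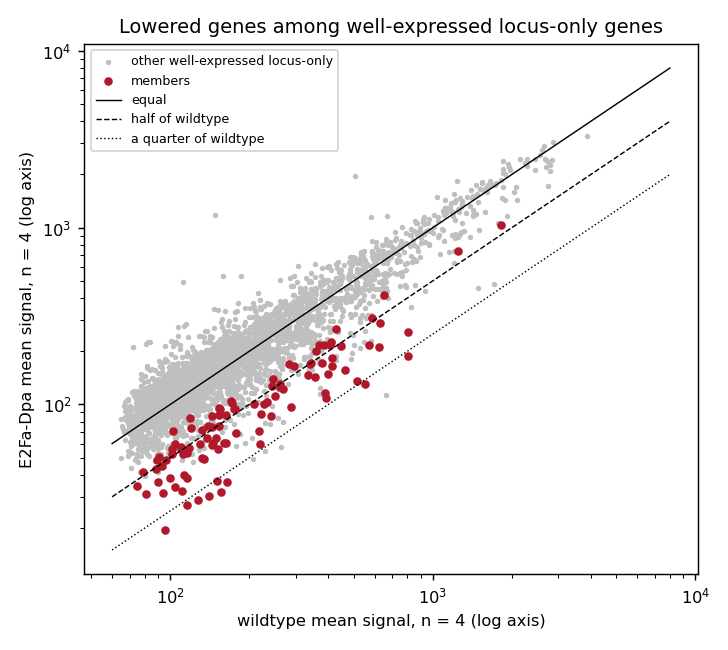
Mean E2Fa-Dpa signal (vertical axis) against mean wildtype signal (horizontal axis), both on log axes, for the 3192 well-measured locus-only probe sets; each point is 1 gene and the 102 chosen genes are red. The red points lie below the line of equal signal, 64 of them at or below 0.5 times the wildtype mean and 9 at or below 0.25 times, and they span the wildtype range between 74.4 and 1816.

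Genes of stress and defence numbered 14, with a median difference of -1.19, the lowest of the functional groups. Several encode small secreted proteins or enzymes that plants make against microbes. AT1G66100 encodes a thionin, a small peptide toxic to microbes, and gave signals of 19.3, 102, 98.9 and 17.9 in E2Fa-Dpa, against 294, 232, 209 and 144 in wildtype. The E2Fa-Dpa arrays split by array set, with replicates 1 and 4 far below replicates 2 and 3, and the difference was -1.86 ± 0.444 (SE). AT4G16260 encodes a glucanase of the type that degrades fungal wall glucans, with 196, 231, 141 and 183 in E2Fa-Dpa and 362, 349, 1599 and 902 in wildtype. Here the wildtype arrays split instead, replicates 3 and 4 standing far above replicates 1 and 2, and the difference of -1.74 ± 0.44 was made up of -2.57 in the arrays with control RNA and -0.91 in those without. AT4G07820, of the secreted pathogenesis-related family that also holds PR-1, had 9.80, 33.5, 22.4 and 12.0 in E2Fa-Dpa and 80.2, 60.8, 159.8 and 80.4 in wildtype. Its mean of 19.4 ± 10.9 in E2Fa-Dpa was 0.204 times its mean of 95.3 ± 44 in wildtype (SD, n = 4 each), the lowest such ratio of all 102 genes.

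Chitinases, which cut the chitin of fungal walls, were represented by a pair of loci that lie close together. AT2G43590 gave 92.7, 81.0, 82.0 and 88.3 in E2Fa-Dpa, against 151, 190.5, 306 and 321 in wildtype, a difference of -1.28 ± 0.22. The E2Fa-Dpa values were nearly level, and the wildtype values were higher on replicates 3 and 4 than on replicates 1 and 2. AT2G43610 had 92.1, 113, 111 and 87.7 in E2Fa-Dpa and 220.0, 246, 250.2 and 196 in wildtype, a difference of -1.06 ± 0.13, and neither group spread widely. AT1G52060, a jacalin-type lectin that binds mannose, had 49.0, 107, 78.8 and 49.7 in E2Fa-Dpa and 144, 237, 232 and 259.9 in wildtype, and its E2Fa-Dpa replicates 1 and 4 were the lower ones.

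AT4G23670 belongs to the major latex protein family, whose members fold like plant pathogenesis-related proteins that bind small molecules. It gave 933, 1263, 1067 and 884 in E2Fa-Dpa and 1911, 1726, 1649 and 1976 in wildtype. The wildtype arrays were tight, and the E2Fa-Dpa mean was 0.571 times the wildtype mean. AT4G19530, an intracellular immune receptor of the TIR-NBS-LRR type, had 153, 206, 136 and 162 in E2Fa-Dpa and 491, 554, 292 and 312 in wildtype, with wildtype replicates 1 and 2 above replicates 3 and 4. The remaining genes of the group were a germin-like protein (AT1G18980), a TIR domain protein (AT1G61100), the late embryogenesis abundant protein LEA27 (AT2G46140), a low-temperature and salt responsive membrane peptide (AT2G24040), an NDR1/HIN1-like membrane protein (AT2G27080) and a stress-associated zinc finger protein (AT3G52800). Their differences lay between -1.23 and -0.69.

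**Figure D2:**
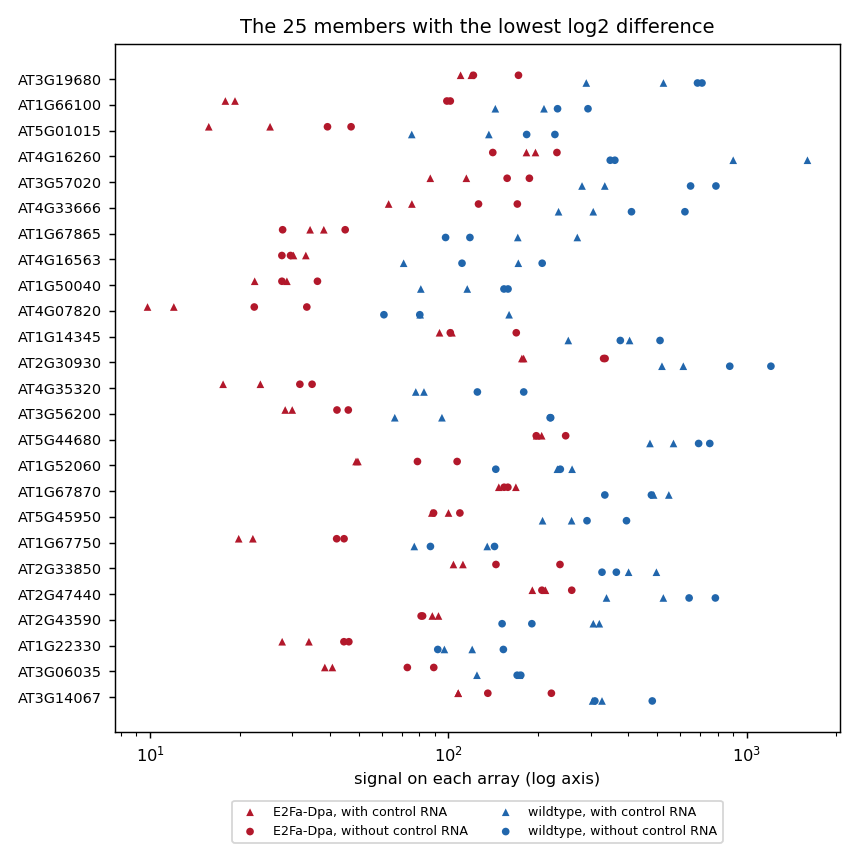
Signal on each of the 8 arrays (horizontal axis, log scale) for the 25 genes with the lowest differences, ordered downward; E2Fa-Dpa is red and drawn above wildtype in blue, with triangles for arrays with control RNA and circles for arrays without. The red triangles of AT1G66100 (19.3 and 17.9) stand apart from its red circles (102 and 98.9), while the blue triangles of AT4G16260 (1599 and 902) stand apart from its blue circles (362 and 349).

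Genes of the cell wall numbered 7, with a median difference of -0.96. Pectin is the gel-like polymer between plant cells, and its methylation and cleavage set how stiff the wall is. AT1G67750, a pectate lyase that cleaves pectin, gave 19.8, 42.2, 44.7 and 22.1 in E2Fa-Dpa and 143, 87.1, 76.9 and 135 in wildtype, the lowest difference of the group at -1.39 ± 0.246. Its E2Fa-Dpa replicates 1 and 4 were about level with each other and below replicates 2 and 3. AT3G49720, a Golgi enzyme that methylates pectin, had 229, 310.4, 310.1 and 215 in E2Fa-Dpa and 394, 464, 401 and 458 in wildtype, its E2Fa-Dpa replicates 1 and 4 again lower than replicates 2 and 3. AT5G55180, of the family of plant glucanases, had 138, 189, 184 and 147 in E2Fa-Dpa and 266, 284, 298 and 338 in wildtype. AT1G67330, of a Golgi methyltransferase family that acts on wall polysaccharides, had 103, 172, 123 and 123 in E2Fa-Dpa and 262, 236, 325 and 222 in wildtype. In all 7 wall genes the difference was further below 0 in the arrays with control RNA than in those without. Among all chosen genes this order was seen in 72 and the opposite order in 29, so it was not particular to the wall genes. The other members were a pectin methylesterase inhibitor (AT5G62340), a putative Golgi methyltransferase (AT2G45750) and a secreted protein of the Ole e allergen family (AT5G10130), with differences of -0.96, -1.06 and -0.99.

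Secreted peroxidases use hydrogen peroxide to cross-link or loosen wall polymers, and 4 of the 7 genes in the group of peroxidases and redox enzymes were of this kind. AT4G30170 had 203, 245, 199.7 and 211 in E2Fa-Dpa and 323, 364, 672 and 423 in wildtype. Its E2Fa-Dpa arrays were close together, and wildtype replicate 3 was the highest. AT3G28200 had 88.8, 130.4, 132 and 96.0 in E2Fa-Dpa and 250.5, 369, 216 and 166 in wildtype, and AT4G26010 had 119, 145, 127 and 119 in E2Fa-Dpa and 225, 214, 285 and 252 in wildtype. The peroxidase with the lowest difference was AT2G18980, at -1.08 ± 0.145, followed by AT3G28200 at -1.02, AT4G30170 at -0.95 and AT4G26010 at -0.85. A pair of FAD-linked oxidases of the berberine bridge enzyme family, AT1G30700 and AT4G20860, had -1.25 and -0.80. AT3G09580, an FAD/NAD(P)-binding oxidoreductase, had -0.60.

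Lipid genes also numbered 7, with a median of -1.02. GDSL lipases are secreted esterases that act on acyl esters, and 3 were among them. AT5G45950 gave 88.0, 109, 89.2 and 100.1 in E2Fa-Dpa and 396, 292, 207 and 259 in wildtype, a difference of -1.40 ± 0.181. The other GDSL loci, AT1G75900 and AT5G45670, had -0.70 and -0.68. AT4G22490, of the family of lipid transfer proteins that carry lipids outside the cell, had 91.9, 162, 156 and 89.8 in E2Fa-Dpa and 243, 273, 286 and 247 in wildtype. Its E2Fa-Dpa values were lower on the arrays with control RNA, and its wildtype values were level. AT4G09760, a choline kinase-like enzyme at the start of phosphatidylcholine synthesis, had 65.8, 81.9, 70.2 and 58.9 in E2Fa-Dpa and 241, 187, 115 and 167 in wildtype. The lipase AT1G02660 and AT3G15690, a biotin/lipoyl attachment protein of plastid fatty acid synthesis, had -1.20 and -0.79.

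**Figure D3:**
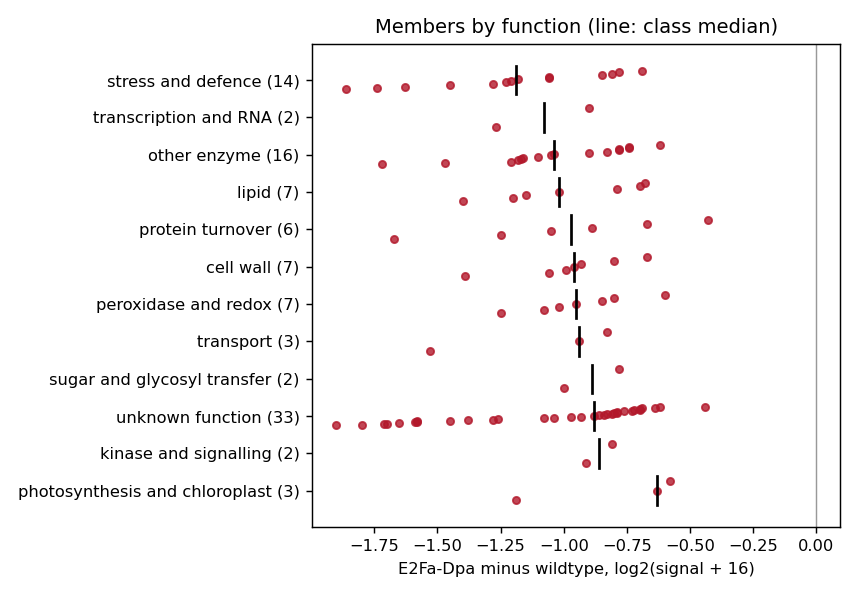
Difference between E2Fa-Dpa and wildtype on the log2(signal + 16) scale (horizontal axis) for each of the 102 genes, by functional group with the number of genes in brackets; points are genes and black lines are group medians. The medians of the groups with at least 3 genes lie between -1.19 for stress and defence and -0.63 for photosynthesis and chloroplast, and the ranges of the groups overlap.

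Protein turnover was represented by 6 genes with a median of -0.97, of which 3 encode aspartyl proteases. AT4G16563 had 33.3, 27.7, 29.6 and 30.3 in E2Fa-Dpa and 111, 206, 172 and 70.8 in wildtype. The E2Fa-Dpa arrays were nearly level, the wildtype arrays spread widely, and the E2Fa-Dpa mean was 0.216 times the wildtype mean. AT3G52500, another aspartyl protease, had 306, 303, 298 and 318 in E2Fa-Dpa and 536, 551, 679 and 577 in wildtype, and the third, AT3G20015, had a difference of -0.67. AT3G14067, a subtilase, which is a serine protease, had 108, 222, 136 and 108 in E2Fa-Dpa and 483, 309.8, 327 and 304 in wildtype. Wildtype replicate 1 lay well above the other wildtype arrays. F-box proteins select other proteins for degradation, and AT2G32560 gave 58.1, 63.3, 58.5 and 61.8 in E2Fa-Dpa and 181, 153, 97.1 and 151 in wildtype. The F-box locus AT1G67340 had the smallest difference of all 102 genes, -0.43 ± 0.101, with means of 84.3 ± 3.08 in E2Fa-Dpa and 119 ± 3.7 in wildtype (SD, n = 4 each).

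Transport was represented by 3 genes. AT3G56200, of an amino acid transporter family, had 28.4, 46.2, 42.3 and 30.0 in E2Fa-Dpa and 219, 220.3, 66.1 and 95.2 in wildtype, and its wildtype replicates 1 and 2 were far above replicates 3 and 4. AT1G61890, a MATE-type efflux carrier, had 49.6, 61.0, 77.6 and 51.0 in E2Fa-Dpa and 173, 113, 125 and 108 in wildtype. AT1G35350, of the SPX-EXS family that holds phosphate exporters, had 36.3, 40.7, 53.1 and 49.7 in E2Fa-Dpa and 79.7, 123, 95.0 and 74.6 in wildtype. The amino acid transporter had the lowest difference of the 3, -1.53, against -0.94 and -0.83.

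Chloroplast proteins were also 3. AT3G48420 and AT4G39970 encode sugar phosphate phosphatases of the HAD type in the chloroplast. AT3G48420 had 124, 258, 237 and 112 in E2Fa-Dpa and 445, 425, 336 and 450.5 in wildtype, with E2Fa-Dpa replicates 1 and 4 low. AT4G39970 had 96.7, 102, 88.0 and 97.3 in E2Fa-Dpa and 156, 143, 129.8 and 182 in wildtype, and AT1G54500, a rubredoxin-like electron carrier, had 436, 436, 359.6 and 433 in E2Fa-Dpa and 663, 601, 568 and 786 in wildtype. AT3G48420 was the only one of the 3 with an E2Fa-Dpa mean below 0.5 times the wildtype mean, at 0.441.

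Other enzymes made up 16 genes, with a median of -1.04. AT3G57020, a strictosidine synthase-like protein, had 115, 187, 157 and 87.0 in E2Fa-Dpa and 789, 649, 281 and 334 in wildtype. In both groups the arrays with control RNA were the lower ones, and the difference was -1.72 ± 0.341. AT5G44680, of a DNA glycosylase family that removes damaged bases, had 206, 197, 247 and 198 in E2Fa-Dpa and 752, 690.2, 568 and 474 in wildtype, with tight E2Fa-Dpa values. AT1G04040, related to vegetative storage proteins with an acid phosphatase fold, had 237, 383, 280.2 and 252 in E2Fa-Dpa and 564, 612, 709 and 623 in wildtype. AT1G32470, the H-protein of the mitochondrial glycine cleavage system used in photorespiration, had 728, 820.2, 685 and 726 in E2Fa-Dpa and 1097, 1139, 1241 and 1526 in wildtype, and its E2Fa-Dpa mean was 0.591 times the wildtype mean.

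Several of these enzymes came as pairs of one family. The zinc-binding alcohol dehydrogenases AT5G42250 and AT1G22440 had differences of -1.17 and -0.78, the tropinone reductase-like dehydrogenases AT2G29310 and AT1G07440 had -1.16 and -0.90, and the BAHD acyltransferases AT4G15390 and AT1G28680 had -1.04 and -0.83. The rhodanese-fold proteins AT2G21045, an arsenate reductase, and AT3G59780 had -0.78 and -0.74. The rest were a carboxylesterase (AT2G03550), a fructosamine kinase-like protein (AT3G61080), an oxoglutarate-dependent oxygenase (AT3G19000) and a GTP cyclohydrolase of folate synthesis (AT3G07270), between -1.21 and -0.62. Smaller groups held an RNA-binding protein (AT1G22330, -1.27), a ribosomal protein of the large subunit (AT3G13580, -0.90), a leucine-rich repeat receptor kinase (AT1G51805, -0.91), a protein phosphatase (AT1G47380, -0.81), a UDP-glycosyltransferase (AT1G06000, a ratio of means of 0.383) and an O-fucosyltransferase-like protein (AT3G02250, -0.78).

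Of the 25 genes with the lowest differences, 12 have no family given here. AT3G19680 had the lowest difference of all, -1.90 ± 0.267, with 119, 121, 172 and 109.9 in E2Fa-Dpa and 684, 708, 290.0 and 526 in wildtype. Wildtype replicate 3 lay well under the other wildtype arrays and still well above every E2Fa-Dpa array. AT2G30930 had 176, 335, 332 and 179 in E2Fa-Dpa and 878, 1206, 613 and 520.1 in wildtype, and in both groups the arrays with control RNA were the lower ones. AT5G01015 had 15.7, 39.3, 47.2 and 25.2 in E2Fa-Dpa and 183, 228, 75.4 and 137 in wildtype, and AT4G33666 had 63.1, 170.3, 126 and 75.5 in E2Fa-Dpa and 621, 411, 234 and 306 in wildtype. Both showed the same order of array sets in each group. AT1G14345 had 93.4, 169, 102 and 103 in E2Fa-Dpa and 512, 377, 252 and 405 in wildtype, with E2Fa-Dpa replicate 2 above the other 3.

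AT1G67865 and AT1G67870 are next to each other on the chromosome and were both among the 25. AT1G67865 had 38.2, 45.1, 27.8 and 34.4 in E2Fa-Dpa and 97.9, 118, 171 and 271 in wildtype, and AT1G67870 had 148, 154, 158 and 168 in E2Fa-Dpa and 335, 479, 548 and 488 in wildtype. The E2Fa-Dpa values of AT1G67870 were nearly level, and in both genes wildtype replicate 1 was the lowest of its group. The differences of AT1G50040, AT4G35320, AT2G33850, AT2G47440 and AT3G06035 were -1.65, -1.58, -1.38, -1.28 and -1.26. In AT1G50040, AT4G35320 and AT2G47440 wildtype replicates 1 and 2 were above replicates 3 and 4.

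Just inside the limit of the rule were AT4G30670, AT1G26920 and AT3G28200, whose highest E2Fa-Dpa signal was 0.797, 0.793 and 0.791 times the lowest wildtype signal. Just outside were AT1G10380, AT1G73120 and AT4G26480, at 0.801, 0.801 and 0.802 times.

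The array sets were not part of the rule, but their difference was fitted to the same signals that the rule used. A gene with a wide spread inside a group could hardly meet the rule. The shares and p-values in these genes are therefore a description, and how the choice of genes affects them was not tested. In a limma fit with the group in the model, 18 of the 102 genes differed between the sets, or 17.6%, against 26.3% of all probe sets and 33.6% of the well-measured locus-only ones. Of these, 17 were lower in the arrays with control RNA, against 16.5% of all probe sets, and 1 was higher, against 9.73%. Among the 3192 well-measured locus-only probe sets the shares were 17.7% lower and 15.9% higher. The median over the 102 genes was -0.15 on the log2 scale, against -0.02 over the 3192. Among the called genes the largest such differences belonged to the thionin locus AT1G66100, with -1.15 (adjusted p = 0.00999), AT3G57020 with -0.94 (adjusted p = 0.00313), AT4G33666 with -0.91 (adjusted p = 0.00478) and the amino acid transporter AT3G56200 with -0.86 (adjusted p = 0.0118). The 1 gene that was higher was the chitinase AT2G43590, with 0.48 (adjusted p = 0.0442), and that call was kept in 1 of the 8 fits that each omit 1 array (highest adjusted p 0.105). Each array set holds close pairs, so these p-values rest mostly on the spread within pairs. Without E2Fa-Dpa replicate 1, 10 of the 102 genes differed between the sets where 18 did with all arrays, against 15.0% of all probe sets in that fit.

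The rule makes every chosen gene lower in E2Fa-Dpa within each array set as well, and only the sizes can differ. The median difference was -1.06 in the arrays with control RNA and -0.84 in those without, while the 3192 well-measured locus-only probe sets had medians of 0.01 and 0.08. In 72 genes the difference was further below 0 in the arrays with control RNA and in 29 in those without, with no difference at 2 decimals in the remaining 1. No matching count is given for the 3192, whose median was also lower in the arrays with control RNA. The defence genes AT4G16260, AT1G66100 and AT4G07820 had -2.57, -2.46 and -2.28 with control RNA, against -0.91, -1.26 and -0.98 without. The transporter AT3G56200 and the receptor AT4G19530 ran the other way, with -1.08 and -0.88 with control RNA and -1.97 and -1.55 without. By limma's interaction of group and array set, 0 of the 102 genes passed an adjusted p of 0.05, where 0.0835% of all probe sets did. An unadjusted p under 0.05 was found in 24, or 23.5%, against 11.6% of all probe sets and 13.4% of the well-measured locus-only ones. The interaction was fitted to the same signals that the rule used, so these shares are a description. How the choice of genes affects them was not tested. Without wildtype replicate 4 the interaction was called in 8 of the 102 genes, against 4.59% of all probe sets, and without wildtype replicate 3 in 2, against 1.39%.

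**Figure D4:**
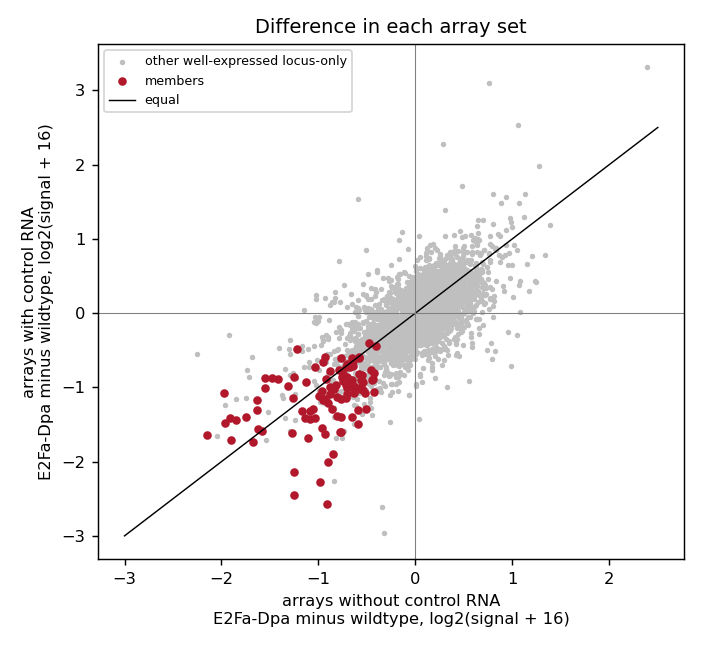
Difference between E2Fa-Dpa and wildtype on the log2(signal + 16) scale in the 4 arrays with control RNA (vertical axis) and in the 4 without (horizontal axis), for the 3192 well-measured locus-only probe sets with the 102 chosen genes in red; the diagonal marks equal differences. By the rule all red points lie below 0 on both axes, and 72 of them lie below the diagonal. No matching count is given for the other points.

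Genes of the same functional groups that carry a name in the annotation fall outside the rule by their naming, and so were not used by it. They share the group but not always the family. Defensins and pectin methylesterases, for example, are on the named lists but not among the families given for the chosen genes. Lists of 36 such genes were written by family, with earlier results of these data known, and all 36 had a probe set. In the limma fit 3 of the 36 were lower and 2 higher, against 2.94% and 4.36% of all probe sets. The median difference of the 36 was -0.12, on a scale that understates the change of dim probe sets. Only 15 of the 36 met the wildtype minimum that every chosen locus met. All 15 had negative differences, between -1.83 for THI2.2 and -0.01 for SBT1.3 and APA1, with LCR69 and GER2 also near 0 (-0.03 and -0.07). The minimum was set on the wildtype arrays alone, so genes bright only in E2Fa-Dpa cannot be among the 15. The sign count is therefore a description. The median over the well-measured locus-only probe sets was 0.05. Both genes called higher, PDF1.4 and SBT3.12, did not meet the minimum. Of 19 named defence genes 3 fell and 1 rose. The lectins JAL33 and JAL34 had 909.9 ± 260 and 1141 ± 243 in E2Fa-Dpa, against 1635 ± 154 and 1871 ± 239 in wildtype (SD, n = 4 each), and both fell (differences -0.87, adjusted p = 0.0276, and -0.72, adjusted p = 0.0356). The defensin PDF2.5 fell to 40.7 ± 6.64 in E2Fa-Dpa, against 96.7 ± 17.2 in wildtype (difference -0.99, adjusted p = 0.00689), while the defensin PDF1.4 rose to 151 ± 43.5, against 29.0 ± 17.3 in wildtype (difference 1.94, adjusted p = 0.005). When arrays were left out singly, JAL33 was still called without E2Fa-Dpa replicate 2 or wildtype replicate 4 and lost without any of the other 6, JAL34 was still called without E2Fa-Dpa replicate 2 alone (highest adjusted p 0.0917 and 0.118), and both defensins were called in all 8 fits.

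The named thionin THI2.2 had 30.3, 371, 307 and 45.7 in E2Fa-Dpa and 1415, 1044, 159 and 197 in wildtype, and the difference of -1.83 did not pass (adjusted p = 0.257, and 0.000101 once array set was blocked). Its groups overlap, and in both the arrays with control RNA were far lower. None of the 4 named pectin methylesterase genes passed, with differences between -0.87 and -0.18, although PMEPCRF and PME61 did once array set was blocked (adjusted p 0.00121 and 0.0256). None of the 3 named secreted peroxidases passed in either fit, where Prx37 had -0.44, PRXR1 -0.13 and PRX52 0.50. Of 10 named proteases only the subtilase SBT3.12 passed, and it rose, to 18.3 ± 5.98 in E2Fa-Dpa against 2.35 ± 1.44 in wildtype (adjusted p = 0.00582). Its wildtype signal was dim. The subtilases SBT4.12 and SBTI1.1, with -0.73 and -0.53, passed once array set was blocked (adjusted p 0.0332 and 0.024). Blocking on array set gave 13 calls among the 36 named genes, against 21.4% of all probe sets, and a random block for each close pair left SBT3.12 as the 1 call (adjusted p 0.0389), against 2.0% of all probe sets.

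Neighbouring genes on the chromosome were compared next, with gene order from the RefSeq table of assembly TAIR10.1. The 102 loci hold 2 pairs of direct neighbours, AT1G67865 with AT1G67870 and AT1G67330 with AT1G67340, and the chitinases AT2G43590 and AT2G43610 have 1 gene between them. Of 434 measured genes within 5 genes of a chosen locus and not chosen themselves, 11 were lower and 18 higher in E2Fa-Dpa, which is 2.53% and 4.15% against 2.94% and 4.36% of all probe sets. Of the 434 genes, 149 met the wildtype minimum that every chosen locus met. The median difference of the 434 was 0.00, on a scale that understates the change of dim probe sets.

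Some of the chosen loci stand in tandem groups of related genes, and 4 such groups were looked at after their values had been seen. In the chitinase group, AT2G43620 lies beside the lowered AT2G43610 and rose, with 222, 108, 152 and 202 in E2Fa-Dpa and 13.9, 22.7, 92.5 and 41.2 in wildtype. Every E2Fa-Dpa value of AT2G43620 lay above every wildtype value, and the difference was 1.81 ± 0.378 (adjusted p = 0.0218). That call was kept in 3 of the 8 fits that each omit 1 array (highest adjusted p 0.0747), lost without E2Fa-Dpa replicate 1, 3 or 4 or wildtype replicate 1 or 2, and lost with a random block for each close pair (adjusted p 0.0857). AT2G43570 at the other end had 0.40 (adjusted p = 0.405), and AT2G43580 and AT2G43600, both dim, had -0.19 and -0.44, not past the threshold, although AT2G43600 passed once array set was blocked (adjusted p 0.012).

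In the tropinone reductase-like group AT2G29290 and AT2G29300 lie beside the chosen AT2G29310. AT2G29290 had 152, 266, 172 and 196 in E2Fa-Dpa and 689, 489, 328 and 464 in wildtype and fell (difference -1.24 ± 0.231, adjusted p = 0.0137), with no overlap between the groups, a call kept whichever array was omitted and lost with a random block for each close pair (adjusted p 0.098). AT2G29300, at 18.3 ± 5.78 in E2Fa-Dpa and 47.6 ± 12.4 in wildtype (SD, n = 4 each), also fell (difference -0.88, adjusted p = 0.0232), a call kept in 3 of 8 such fits. It was lost without E2Fa-Dpa replicate 1 or 3 or wildtype replicate 1, 2 or 4, and with a random block for each close pair (adjusted p 0.145). On the other side of AT2G29310, the 4 measured genes AT2G29320, AT2G29330, AT2G29340 and AT2G29360 had differences of -0.08, 0.25, 0.41 and -0.16, none past the threshold. Among the lectins next to AT1G52060, AT1G52050, AT1G52070 and AT1G52100 had -0.61, -0.81 and -1.07, with adjusted p of 0.104, 0.0843 and 0.17, and after blocking on array set 0.0269, 0.0104 and 0.000696. Beside AT3G57020, AT3G57010 had -0.90 (adjusted p = 0.153, and 0.00665 after blocking on array set) and AT3G57030 0.25 (adjusted p = 0.642). Related neighbours can share sequence, and whether their transcripts bind each other's probes was not tested. All 102 chosen probe sets have the plain suffix that the maker gives to probe sets for a single transcript.

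**Figure D5:**
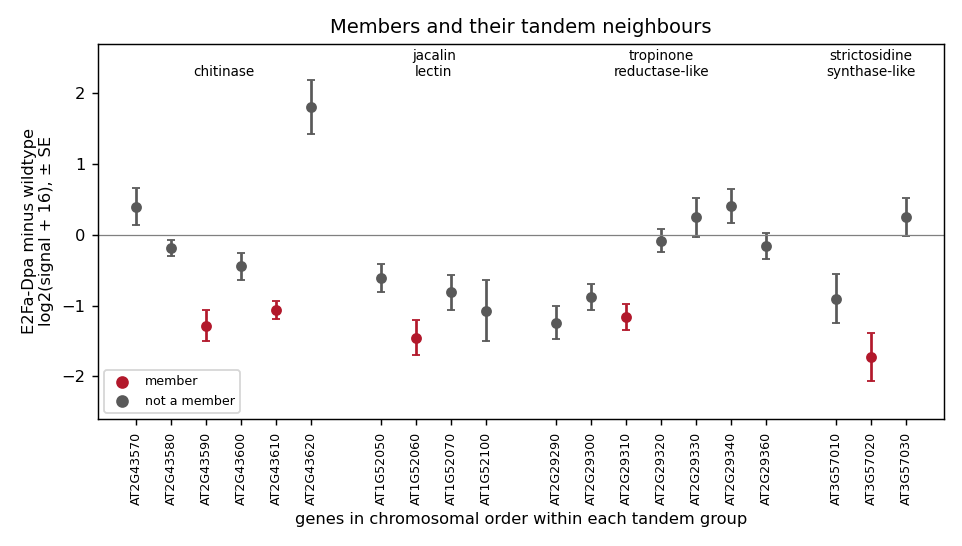
Difference between E2Fa-Dpa and wildtype on the log2(signal + 16) scale (vertical axis, points with SE bars) for genes of 4 tandem groups in chromosomal order, with chosen loci in red and other measured genes in grey. AT2G43620 stands at 1.81 beside the chosen chitinases at -1.28 and -1.06, and AT2G29290 and AT2G29300 stand at -1.24 and -0.88 beside the chosen AT2G29310 at -1.16.

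Markers of single organs moved in part with these genes, and those of root and leaf were bright in every sample. PYK10, an abundant root glucosidase and the 1 measured gene of 6 in a root list, had 2486 to 2727 in E2Fa-Dpa and 3420 to 4608 in wildtype (difference -0.59, adjusted p = 0.0329). The annotation gives no gene for 8730 probe sets, so listed genes counted as unmeasured may be among them. In the 3 measured of 6 leaf mesophyll genes the summed signal was 6269 to 7589 in E2Fa-Dpa and 8507 to 9866 in wildtype. Of these, PRK, the phosphoribulokinase of carbon fixation, passed the test (difference -0.78, adjusted p = 0.0292). LHCB4.1 and PSAN did not (differences -0.37, adjusted p = 0.161, and -0.34, adjusted p = 0.107). For the calls of PYK10 and PRK, fits that omit an array or use blocks are not given. The 2 measured of 3 root hair genes summed to 79.95 to 116.3 in E2Fa-Dpa and 93.5 to 163.9 in wildtype, and the 3 stomatal lineage genes to 72.8 to 98.0 in E2Fa-Dpa and 47.2 to 67.8 in wildtype, none of them past the threshold. The trichome gene TRY and the shoot meristem gene CLV3 were dim, with at most 5.32 and 7.52 in E2Fa-Dpa and 11.2 and 2.19 in wildtype. The part of organ proportions in the lower signals of the 102 genes was not tested.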

How the data were processed

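Each array's deposited table holds linear intensities by probe set, made by the authors with MAS5 per the submitters' processing notes, which give no version. The scaling target is not given in the sources used here. Tests left out the 64 control probe sets. All 22746 others were fitted unfiltered as log2(signal + 16) by limma 3.58.1 (lmFit, eBayes with a trend; R 4.3.3), with Benjamini-Hochberg adjustment over all of them and a threshold of 0.05. The fits were tested on simulated data. The simulated noise was independent between arrays, without the likeness within close pairs seen in these data.

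Members, lists and tests were chosen with earlier results of these data known. Protein families were assigned by hand from background knowledge, because the reference tables hold no product text for these loci. All 102 loci matched the RefSeq table by locus number. Named genes are the 25 lowest differences, then the 3 highest wildtype means of each functional group with at least 3 members, then 3 on each side of the ratio limit. Other loci named, by family or in tandem groups, were chosen after values were seen. Array sets were read from the poly-A control probe sets. Alternatives were quantile scaling, an offset of 1, a minimum mean signal of 60, blocks, other limits and leaving out each array. No sequences were used.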

Additional observations from a re-analysis of the deposited data

Results flagged for a closer look

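In a group of 4 arrays a value was marked when its gap to the nearest other value exceeded Dixon's 95% critical share of the group's range. Among the 204 groups of the 102 genes 9 were marked, which is 4.41%, and chance marks about 1 in 20. Of the genes named by rule, 4 were marked. AT1G14345 had 168.9 on E2Fa-Dpa replicate 2, above 93.4 to 102.8 on the other E2Fa-Dpa arrays. AT1G54500 had 359.6 on E2Fa-Dpa replicate 3, below 433.0 to 436.3 on the others. AT3G06035 had 124.7 on wildtype replicate 3, below 170.1 to 174.9 on the other wildtype arrays. AT3G14067 had 482.6 on wildtype replicate 1, above 304.5 to 327.4 on the others.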

How the results depend on the processing

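The choice of genes moved with its limits. A ratio limit of 0.9 took 177 genes and one of 0.7 took 47, a wildtype minimum of 40 took 129 and one of 100 took 70, and quantile scaling took 129, of which 99 were among the 102. Leaving out 1 array relaxes the rule and took 104 to 175 genes, 175 without wildtype replicate 3 and 156 without E2Fa-Dpa replicate 2. The median difference of the 102 genes stayed between -1.02 and -0.91 when an array was left out and was -1.004 with quantile scaling. Of the 102, limma called 57 to 96 when an array was left out, 57 without E2Fa-Dpa replicate 4 and 60 without replicate 1, and 38 with a random block for each close pair. Over all probe sets the 1661 calls became 4876 when array set was blocked, 454 with the random block for pairs and 674 to 1696 with an array left out. Deviations from the group means correlated at -0.519, 0.443, -0.359 and 0.526 between E2Fa-Dpa and wildtype samples of the same replicate number. The sign followed the array set, positive for every combination within a set and negative for every other. Whether the replicate numbers pair the samples therefore cannot be told from these correlations. With a replicate block 74 of the 102, 4 of the 36 named family genes and 854 of all probe sets were called. Of the 36 named family genes 5 were called, 13 when array set was blocked, 1 with the random block for pairs and 3 to 9 with an array left out. Between the array sets 10 to 20 of the 102 genes differed with an array left out, and the interaction was called in 0 to 8. The causes of these changes were not tested, and fits with an array left out also hold fewer arrays. No background measure was used, so how far the dimmest signals lie above it is unknown.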

Other observations

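The share of well-measured probe sets that met the minimum and the ratio was 3.195% for locus-only probe sets (102 of 3192), against 5.193% for probe sets with a named gene (35 of 674) and 3.51% for probe sets without a gene in the annotation (130 of 3704). Chromosome 5 held 13.7% of the 102 loci and 23.3% of the well-measured locus-only probe sets, and chromosome 1 held 31.4% and 25.5%. These shares were not tested.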
